A study of Mus musculus with 15 samples.

Results

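The genes described are 9 enzymes that make, salvage or remove deoxynucleotides: Tk1, Tyms, Rrm1, Rrm2, Rrm2b, Dut, Dck, Dctd and Samhd1. They were taken by symbol from a table of 54495 genes, in which each matched 1 protein-coding gene. All 9 passed the filter for testing, which asked that 2 or more of the 15 libraries reach an FPKM of 1 (the deposited fragment count per kilobase of gene, adjusted for library size). Rrm2b passed it only through 3 DM libraries, so its lower values in TM and in G3DM are partly a condition of its being tested.

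Ribonucleotide reductase converts ribonucleotides to deoxynucleotides and is built from a large subunit, Rrm1, and a small subunit. Rrm2 is the small subunit of cells in S phase, and Rrm2b (also called p53R2) is the small subunit known as a p53 target, used for DNA repair and mitochondrial DNA outside S phase. Dctd and Dut supply dUMP, Tyms methylates it to dTMP, Tk1 and Dck salvage deoxynucleosides by phosphorylation, and Samhd1 cleaves deoxynucleotide triphosphates. In fibroblasts, transcripts of Tk1, Tyms, Rrm1, Rrm2 and Dut are known to be highest in cells that replicate DNA.

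The libraries were polyA RNA of mouse embryonic fibroblasts (MEFs) taken at embryonic day 13.5 and grown in DMEM with 10% fetal bovine serum at 5% CO2 and 3% O2. All were mTR-/- (no telomerase RNA) and Wrn-/- (no Werner syndrome helicase). DM cells were mTR-/-Wrn-/-p53WT, and TM cells were mTR-/-Wrn-/-p53N236S/N236S, with the p53 change N236S (p53S in the series text) on both alleles. Cells came from mice of generations G1, G3 and G5, with 2 G1DM, 2 G1TM and 2 G3DM libraries, and with 3 libraries in each remaining group (G3TM, G5DM, G5TM). Every group therefore lacked telomerase RNA and Wrn, and the wild-type and p53S control MEFs named in the design text were not analysed here, so no value is set against cells with telomerase or Wrn. The labels do not say whether libraries of a group came from separate embryos. Sex-linked transcripts differed between libraries within G1DM, G5DM and G5TM (values below), so the libraries of these groups did not all come from the same embryo. For G1TM, G3DM and G3TM this is not known. The p-values measure the spread between these libraries, which may be technical in part.

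The libraries held 17448588 to 29571111 recovered reads, and all 10 fibroblast markers passed the filter. Wrn stayed between 0.0447 and 0.599 FPKM, and Terc (the gene of mTR) was listed at 0 in 14 libraries. The 3 G3TM and 3 G5TM libraries stood apart from the other 9: mt-Rnr2, a mitochondrial ribosomal RNA, measured 44.7 to 73.6 FPKM against 1.48 to 3.76, and Rpl12, a ribosomal protein, 300.4 to 609.7 against 3.84 to 6.77. TM and DM in G3 and G5 lie on opposite sides of this division, so there the p53 genotype and the division cannot be told apart, while G1TM and G1DM lie on the same side. The mean of the 3 generations, used below, includes G3 and G5. Genotype and the division therefore cannot be told apart in that mean either. The mean level of the fibroblast markers on the log2(FPKM + 1) scale was 6.19 to 6.51 in the 6 libraries and 6.88 to 7.74 in the 9. Their summed FPKM overlapped, at 3079 to 4582 in the 6 and 3783 to 6219 in the 9. On the log2(FPKM + 1) scale the mean level of 7 neural markers did not overlap either, at 2.149 to 2.69 and 1.575 to 2.107. The summed FPKM of 7 neural markers was 101.8 to 295.6 in the 6 and 40.9 to 102.6 in the 9 (Dcx, Elavl3 and Map2 under 1 in every library), and that of 7 endothelial markers 1.93 to 6.02 and 4.72 to 9.15 (Emcn, Pecam1 and Tie1 under 1). Epithelial markers summed to 19.6 to 76.1 and 3.98 to 48.4 (Cdh1, Cldn6, Epcam and Krt5 under 1), and skeletal muscle markers to 43.4 to 478.2 and 38.8 to 342.6 (Ckm and Myf5 under 1), highest in G3TM replicate 2. Their part in the results was not tested. Embryo sex also moved with genotype in G3, where Xist was above the summed Y-linked genes in 2 of 2 DM libraries and below them in 3 of 3 TM libraries. Sex was not balanced in G1 either, with Xist above them in 1 of 2 DM and 2 of 2 TM libraries. In G5 Xist was above them in 1 of 3 DM and 2 of 3 TM libraries. The part of sex in the results was not tested. With tested genes divided into 4 even classes, the median fitted TM minus DM difference in G5 went from -0.69 in the class lowest in transcript GC content to 0.69 in the highest, and from 0.43 in the class of shortest genes to -0.52 in that of the longest. The corresponding medians in G1 lay between -0.03 and 0.04 by GC content. G1DM replicate 1 and G5TM replicate 2 had the lowest summed level of 15 S phase genes in their groups, 133.7 FPKM against 254.4, and 344.8 against 584.2 and 598.4. In bulk RNA, fewer cells in S phase and less RNA per cell cannot be told apart.

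In G1 no member passed the test between TM and DM (0 of 9, limma on log2(FPKM + 1), adjusted p under 0.05 over 13562 genes, where 0.361% of all tested genes were called higher and 0.811% lower). The tool voom on the recovered reads also called 0, and 7 of 9 had an unadjusted p under 0.05. Here and below, counts at an unadjusted p, and counts in alternative fits where no share is printed, stand without the share of all tested genes. They are not read as results about the genes counted. All the members except Rrm2b were nevertheless higher in both G1TM libraries than in both G1DM libraries, 8 of 9, where 26.4% of all tested genes showed this order. The median TM minus DM difference of the 9 was 0.89 on the log2(FPKM + 1) scale, against 0.02 over all tested genes. The number called in G1 changed with the libraries used: it was 0 without G1DM replicate 1, where the differences ran from -0.35 for Rrm2b to 0.91 for Tk1 with Rrm2 at 0.28 and Dck at 0.55 (adjusted p 0.52 to 1 over the 9). It was 2 without G1DM replicate 2 (Rrm2 1.93, adjusted p = 0.041, and Dck 1.23, adjusted p = 0.041, where 0.892% of all tested genes were called higher), and 1, Rrm1, without G5DM replicate 1 (rounded adjusted p = 0.05) or without G5TM replicate 2 (adjusted p = 0.046). Of all genes called in G1, 30.8% were higher in TM, and this share was 48.8% after quantile normalization, 43.7% with scaling to the total of recovered reads and 51.7% once trends with GC content and length were removed.

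In G3, 5 of 9 members were called higher and 0 lower, where 18% of all tested genes were called higher. In G5, 5 were called higher and 1 lower, where 30.3% of all tested genes were called higher and 28.4% lower. Over the mean of the 3 generations 8 rose and only Rrm2b did not pass (-0.26 ± 0.14, adjusted p = 0.12, and called lower at -0.34 with adjusted p = 0.0094 without G5DM replicate 1, where 31.4% of all tested genes were called lower), where 29% of all tested genes were called higher. Rrm2b passed the filter only through DM libraries, so its lower call is partly a condition of its being tested. The members' median differences were 0.85, 0.68 and 0.78, against 0.0143, 0.0201 and -0.00432 over all tested genes. Tk1, Dut and Tyms were higher in each of the 8 TM libraries than in each of the 7 DM libraries, an order held by 3.86% of all tested genes. In G3, TM and DM did not overlap for the 8 members other than Rrm2b, all higher in TM (31.6% of all tested genes). In G5 this held for Tk1, Tyms, Dut and Samhd1 (29.6% of all tested genes), and in the other direction for Rrm2b (28.3%). Leaving out G3DM replicate 1 left 3 members called in G3, leaving out G3DM replicate 2 left 2, and leaving out G5DM replicate 2 left 3 in G5. The share of all tested genes called in these fits is not given, so the counts are not read as results about the members. The fit without G1DM replicate 1 and G5TM replicate 2 together was chosen after the data were seen. It leaves a single G1DM library, so its counts of called members are not given.

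**Figure D1:**
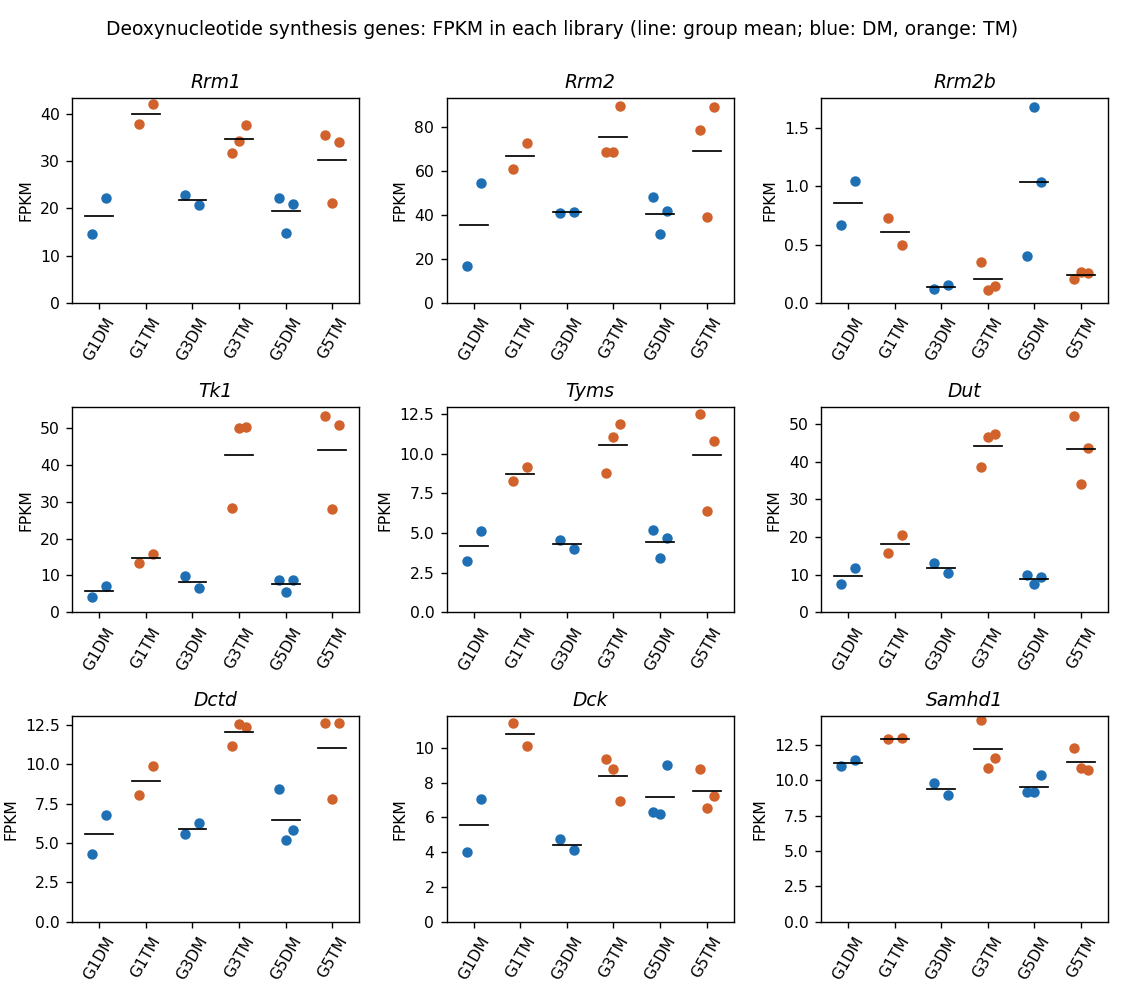
FPKM of the 9 genes (1 panel each, linear axis from 0) in the 15 libraries by group. Points are libraries and lines are group means. In the Tk1 panel all TM points (13.4 to 53.1) lie above all DM points (4.20 to 9.85), and in the Rrm2b panel the G3DM points lie with the G3TM and G5TM points at or below 0.350.

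The promoters of Rrm1 and Rrm2 are shown because they drive both subunits of the S phase enzyme, and that of Tyms as a member that correlated with them but held none of the motifs searched. The sequences are from RefSeq (GRCm38.p6), read toward the gene, up to 250 bases before the RefSeq start site and with bases inside the listed gene left off. Capitals mark E2F-type motifs (TTCCCGC with its variants spelled TTCGCGC and also TTGGCGC and also TTGCCGC) and CCAAT boxes (CCAAT), searched on both strands.
Rrm1, chr7:102441445-102441694 (+): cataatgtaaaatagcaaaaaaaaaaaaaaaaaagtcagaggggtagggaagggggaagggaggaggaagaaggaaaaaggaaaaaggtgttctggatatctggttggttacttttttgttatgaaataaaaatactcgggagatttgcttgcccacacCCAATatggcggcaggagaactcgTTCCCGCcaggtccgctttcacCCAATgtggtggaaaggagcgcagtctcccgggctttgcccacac
Rrm2, chr12:24708004-24708240 (+): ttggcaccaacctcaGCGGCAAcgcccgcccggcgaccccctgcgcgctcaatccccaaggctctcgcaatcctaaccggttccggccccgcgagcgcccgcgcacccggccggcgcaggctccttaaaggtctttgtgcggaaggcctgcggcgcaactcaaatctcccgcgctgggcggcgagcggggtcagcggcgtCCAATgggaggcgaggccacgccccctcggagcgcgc
Tyms, chr5:30073626-30073875 (-): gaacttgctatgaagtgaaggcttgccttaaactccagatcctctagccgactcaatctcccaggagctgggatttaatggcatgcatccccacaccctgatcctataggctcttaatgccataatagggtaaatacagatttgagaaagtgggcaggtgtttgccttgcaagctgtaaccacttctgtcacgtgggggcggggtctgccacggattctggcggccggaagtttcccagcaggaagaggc
Rrm1 held TTCCCGC 67 bases before the start site and CCAAT at 91 and 45 bases before it. Rrm2 held GCGGCAA, the reverse of TTGCCGC, 235 bases before the start site and CCAAT 50 bases before it. The CHR element (TTTGAA or TTCGAA) was in neither. Of 32851 promoter windows of 250 bases, 7.89% held one of the E2F-type motifs, 33.8% CCAAT and 17.1% a CHR element. Promoters were listed for 8 of the 9 members: Dck held the CHR letters as TTCAAA 245 bases before its start site, Dctd held CCAAT in 2 of its 3 listed promoters, and Tk1, Dut, Tyms and Samhd1 held none of the 3 motifs. The search covered whole windows, also bases inside the listed gene. The Dut window and both Dctd windows with CCAAT lay wholly inside the listed genes, and 78 bases of the Tk1 window did. Most of the Samhd1 window (157135097 to 157135346, with the gene end at 157135265) and a short end of the Dck window also lay inside the listed genes. Bases before the listed start of Dut were thus not searched. A match is a description of these letters only.

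Rrm1, the large subunit of ribonucleotide reductase (ENSMUSG00000030978, chromosome 7, 102441695 to 102469771), had FPKM values of 14.6 and 22.1 in the G1DM libraries and of 37.9 and 41.9 in the G1TM libraries. The G3DM values were 22.9 and 20.7, the G3TM values 31.8, 34.2 and 37.6, the G5DM values 22.2, 14.9 and 21.0, and the G5TM values 35.5, 21.1 and 33.9. The TM libraries were thus higher without overlap in G1 and G3, and in G5 only replicate 2 of TM lay among the DM values. The G1 means were 18.3 ± 5.3 and 39.9 ± 2.9 FPKM (SD, n = 2 each), a ratio of 2.18. On the log2(FPKM + 1) scale the G1 difference was 1.11 ± 0.28 (SE; 95% interval 0.51 to 1.70; limma adjusted p = 0.069). The differences were 0.64 ± 0.25 in G3 (adjusted p = 0.069) and 0.60 ± 0.23 in G5 (adjusted p = 0.036), and the rise over the mean of generations was 0.78 ± 0.15 (adjusted p = 0.00072). The G5 call was lost in 8 of 24 alternatives, among them quantile normalization (0.16, adjusted p = 0.48), and in the fits without G5DM replicate 2, G5DM replicate 3, G5TM replicate 1 or G5TM replicate 3 (adjusted p 0.051 to 0.16). Rrm1 is long (11012 bases) and low in GC (44.0%, against a median of 50.3% over tested genes), and after removal of the GC and length trend its G5 difference was 1.53 ± 0.30.

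Rrm2, the S phase small subunit (ENSMUSG00000020649, chromosome 12, 24708241 to 24714146), had the highest FPKM of the 9 in every library. The values were 16.7 and 54.6 FPKM (G1DM), 60.9 and 73.0 (G1TM), 40.9 and 41.6 (G3DM), and 68.7, 68.6 and 89.6 (G3TM). The G5 libraries gave 48.4, 31.3 and 41.8 for DM and 78.5, 39.1 and 89.3 for TM. TM was higher without overlap in G1 and G3, and G5TM replicate 2 lay below 2 of the 3 G5DM libraries. The lowest library of G1DM (replicate 1) and of G5TM (replicate 2) was also the lowest of its group in the S phase list. Rrm2 did not pass within any generation: the differences were 1.11 ± 0.46 in G1 (limma adjusted p = 0.32), 0.85 ± 0.42 in G3 (adjusted p = 0.14) and 0.69 ± 0.38 in G5 (adjusted p = 0.13). It rose over the mean of generations by 0.88 ± 0.24 (adjusted p = 0.0083), a call lost after quantile normalization (0.54, adjusted p = 0.058). Without G1DM replicate 1 and G5TM replicate 2 the differences were 0.28 in G1, 0.85 in G3 and 1.05 in G5. Both libraries were chosen after the data were seen and were the lowest of their groups for Rrm2. The values of this fit are therefore no support for a difference of Rrm2.

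Rrm2b, the p53-induced small subunit (ENSMUSG00000022292, chromosome 15, 37923952 to 37961318), was the lowest of the 9 in every library, with 15 to 332 reads. Both G1DM libraries held 0.668 and 1.05 FPKM, the G1TM libraries 0.730 and 0.497, the G3DM libraries 0.120 and 0.153, and the G3TM libraries 0.350, 0.112 and 0.151. The G5DM libraries held 0.400, 1.68 and 1.04 FPKM, and the G5TM libraries 0.208, 0.265 and 0.261. By group mean the order was G5DM (1.04), G1DM (0.856), G1TM (0.614), G5TM (0.245), G3TM (0.204) and G3DM (0.137), and of neighbours in that order only G1TM and G5TM did not overlap. The levels did not sort by p53 genotype: DM and TM overlapped in G1 and G3, and both G3DM libraries were among the 4 lowest of the 15. The differences were -0.20 ± 0.26 in G1 (95% interval -0.76 to 0.36; limma adjusted p = 0.87) and 0.08 ± 0.24 in G3 (-0.43 to 0.59; adjusted p = 0.83).

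In G5 Rrm2b fell in TM by 0.66 ± 0.21 on the log2(FPKM + 1) scale (limma adjusted p = 0.016). This scale understates changes of low genes, and the mean FPKM was 4.25 times as high in G5DM (1.04 ± 0.64, SD, n = 3) as in G5TM (0.245 ± 0.032, SD, n = 3). All the G5TM libraries lay below all the G5DM libraries, the nearest being 0.265 and 0.400 FPKM. Rrm2b reached an FPKM of 1 only in G1DM and G5DM libraries, so this fall is partly a condition of its being tested. The call alone is no support for it. The call was lost without G5DM replicate 2 (-0.44, adjusted p = 0.093), when only the G5 groups were fitted (adjusted p = 0.063) and after quantile normalization (-0.41, adjusted p = 0.054). Rrm2b has a transcript GC content of 41.2%, below that of all but 6.69% of tested genes, and a length of 9134 bases. After removal of the GC and length trend the G5 difference turned to 0.36 ± 0.15 (adjusted p = 0.06). The DM groups differ along GC content as well: the class of genes lowest in GC had a median of -0.475 for G3 against G1 in DM and 0.485 for G5 against G3, and the differences of Rrm2b had the same signs, -0.70 ± 0.26 (adjusted p = 0.15) and 0.79 ± 0.24 (adjusted p = 0.067). Whether GC content or length has a part in the values of Rrm2b beyond these fits was not tested. Gm3362, a processed pseudogene inside an intron of Rrm2b, measured 12.5 to 19.1 FPKM in the G3TM and G5TM libraries and 27.3 to 52.0 in the other 9. Reads of it and of Rrm2b may be split by the counting, so the level of Rrm2b is uncertain.

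**Figure D2:**
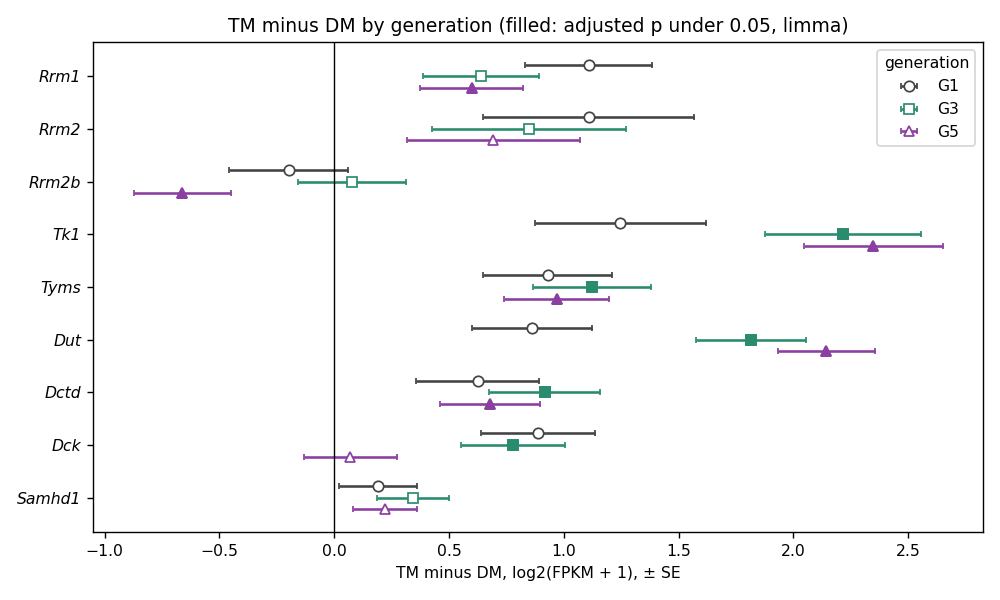
TM minus DM difference of each member on the log2(FPKM + 1) scale (x axis) by generation, with SE bars, and filled symbols for an adjusted p under 0.05. Tk1 and Dut lie between 0.86 and 1.25 in G1 and between 1.81 and 2.35 in G3 and G5, while Rrm2b is the only member below 0 in G1 and G5.

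The balance between both small subunits was taken as a ratio in each library. Rrm2 over Rrm2b in FPKM was 25.1 and 52.2 in G1DM and 83.4 and 146.8 in G1TM, and the groups did not overlap. It was 18.6 to 120.9 in G5DM and 147.1 to 377.5 in G5TM, again without overlap. In G5 the mean FPKM of Rrm2b was 4.25 times as high in DM, and that of Rrm2 1.7 times as high in TM. Rrm2b passed the filter only through G1DM and G5DM libraries, so both orders of the ratio are partly a condition of its being tested. The G5 difference of Rrm2b also turned to 0.36 after removal of the GC and length trend. The ratios are therefore no support for a difference between genotypes. In G3 the DM libraries (271.5 and 341.4) lay within the range of the TM libraries (196.5 to 615.1). Rrm2b made up 0.292% to 5.09% of the summed FPKM of the small subunits in DM and 0.162% to 1.19% in TM, so Rrm2 was by far the major small subunit transcript in all 15 libraries. Rrm2 over Rrm1 stayed between 1.15 and 2.63 throughout.

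Tk1, the cytosolic thymidine kinase of salvage (ENSMUSG00000025574, chromosome 11, 117815526 to 117826092), showed the largest difference of the 9 in every generation. DM libraries held 4.20 and 7.27 FPKM in G1, 9.85 and 6.66 in G3, and 8.77, 5.49 and 8.70 in G5. TM libraries held 13.4 and 15.8 FPKM in G1, 28.1, 49.8 and 50.2 in G3, and 53.1, 28.0 and 50.7 in G5. The G3TM and G5TM libraries overlapped and lay above both G1TM libraries, which lay above all DM libraries, and the DM groups overlapped each other. Mean FPKM was 2.55 times as high in TM as in DM in G1, 5.17 times in G3 and 5.74 times in G5. The differences were 1.25 ± 0.37 in G1 (limma adjusted p = 0.13), 2.21 ± 0.34 in G3 (adjusted p = 0.00055) and 2.35 ± 0.30 in G5 (adjusted p = 7.7e-05), and the rises in G3 and G5 were called in 24 of 24 alternatives each. After quantile normalization the G1 difference passed (1.37, adjusted p = 0.035). Afmid, which overlaps the first exon of Tk1 on the other strand, measured 0.470 to 0.976 FPKM, and the strand used in counting is not given in the sources used here.

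Dck, the deoxycytidine kinase (ENSMUSG00000029366, chromosome 5, 88764996 to 88783281), had another order of levels. Its FPKM was 4.03 and 7.05 in G1DM against 11.5 and 10.1 in G1TM, and 4.76 and 4.11 in G3DM against 9.35, 8.78 and 6.97 in G3TM. The G5DM values of 6.29, 6.21 and 9.04 overlapped the G5TM values of 8.80, 6.56 and 7.23. It rose in G3 by 0.78 ± 0.23 (limma adjusted p = 0.019), a call lost in 4 of 24 alternatives: scaling to recovered reads (adjusted p = 0.054) and leaving out G3DM replicate 1 (0.063), G3DM replicate 2 (0.15) or G3TM replicate 2 (0.057). In G1 the difference was 0.89 ± 0.25 (adjusted p = 0.11) and in G5 0.07 ± 0.20 (95% interval -0.37 to 0.51; adjusted p = 0.78). Dck has a low GC content (42.2%), and its G5 difference was 0.58 ± 0.17 (adjusted p = 0.012) after removal of the GC and length trend. The TM minus DM difference in G5 against that in G1 was -0.82 ± 0.32 (adjusted p = 0.081) and did not pass.

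Dut, the dUTPase that makes dUMP and keeps uracil out of DNA (ENSMUSG00000027203, chromosome 2, 125247190 to 125258608), was ordered like Tk1. Among DM libraries the values were 7.47 and 11.8 FPKM in G1, 13.2 and 10.5 in G3, and 10.0, 7.47 and 9.34 in G5. Among TM libraries they were 15.7 and 20.5 FPKM in G1, 38.6, 46.5 and 47.2 in G3, and 52.2, 34.0 and 43.6 in G5. Every TM library was above every DM library, and the G3TM and G5TM libraries were above both G1TM libraries. The differences were 0.86 ± 0.26 in G1 (limma adjusted p = 0.14), 1.81 ± 0.24 in G3 (adjusted p = 0.0002) and 2.14 ± 0.21 in G5 (adjusted p = 1.2e-05), and the rises in G3 and G5 were called in 24 of 24 alternatives each.

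Tyms, the thymidylate synthase of the de novo route (ENSMUSG00000025747, chromosome 5, 30058202 to 30073617), was higher in TM in each generation. The G1DM libraries stood at 3.22 and 5.16 FPKM and the G1TM libraries at 8.28 and 9.16. Those of G3DM stood at 4.57 and 4.01, those of G3TM at 8.82, 11.1 and 11.9, those of G5DM at 5.17, 3.46 and 4.71, and those of G5TM at 12.5, 6.40 and 10.8. No TM library overlapped the DM range of 3.22 to 5.17. Mean FPKM was 2.08, 2.46 and 2.22 times as high in TM as in DM in G1, G3 and G5. The differences were 0.93 ± 0.28 (limma adjusted p = 0.14), 1.12 ± 0.26 (adjusted p = 0.0057, and 0.064 without G3DM replicate 2) and 0.97 ± 0.23 (adjusted p = 0.0032). Tyms-ps, a processed pseudogene, was listed at 0 in 13 libraries and at no more than 0.067 FPKM in the others.

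Dctd, the dCMP deaminase that supplies dUMP (ENSMUSG00000031562, chromosome 8, 48099092 to 48153233), stood at 4.32 and 6.76 FPKM in the G1DM libraries and at 8.02 and 9.87 in those of G1TM. Its FPKM was 5.58 and 6.24 in G3DM against 11.2, 12.6 and 12.4 in G3TM, and 8.42, 5.19 and 5.81 in G5DM against 12.6, 7.78 and 12.6 in G5TM. Only in G5 did the groups overlap, through DM replicate 1 and TM replicate 2. It rose by 0.92 ± 0.24 in G3 (limma adjusted p = 0.012) and 0.68 ± 0.22 in G5 (adjusted p = 0.017), while the G1 difference was 0.62 ± 0.27 (adjusted p = 0.33). The G3 call was lost without G3DM replicate 1 (adjusted p = 0.085) or G3DM replicate 2 (0.067). The G5 call was lost in 6 of 24 alternatives (adjusted p 0.056 to 0.078), among them removal of the GC and length trend (0.42, adjusted p = 0.066) and leaving out G5DM replicate 2, G5DM replicate 3, G5TM replicate 1 or G5TM replicate 3.

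Samhd1, the triphosphohydrolase that lowers deoxynucleotide pools (ENSMUSG00000027639, chromosome 2, 157097533 to 157135265), varied least, from 8.98 to 14.3 FPKM over all libraries. Group means ran from 9.39 ± 0.58 in G3DM to 13.0 ± 0.025 in G1TM (SD, n = 2 each). TM was above DM without overlap in each generation, but the differences were small, 0.19 ± 0.17 in G1 (95% interval -0.18 to 0.56; limma adjusted p = 0.78), 0.34 ± 0.16 in G3 (0.01 to 0.68; adjusted p = 0.11) and 0.22 ± 0.14 in G5 (-0.08 to 0.52; adjusted p = 0.19). Over the mean of generations it rose by 0.25 ± 0.09 (adjusted p = 0.031), a call lost in 12 of 23 alternatives, including the fit with the replicate block (adjusted p = 0.053). The libraries whose omission lost it were G1DM replicates 1 and 2, G1TM replicates 1 and 2, G3DM replicates 1 and 2, G5DM replicate 2 and G5TM replicate 1 (adjusted p 0.05 to 0.089). After removal of the GC and length trend Samhd1 passed in G3 (0.62, adjusted p = 0.0024) and G5 (0.70, adjusted p = 0.00035). Samhd1 is also known from macrophages and as an interferon-induced gene. The summed level of 12 macrophage and leukocyte markers was 8.27 to 431.5 FPKM in G3TM and 8.56 to 130.0 in the other groups, with Aif1, Itgam and Ptprc under 1 FPKM in every library, and that of 12 interferon response genes was 13.0 to 85.0. Their part in the values of Samhd1 was not tested.

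**Figure D3:**
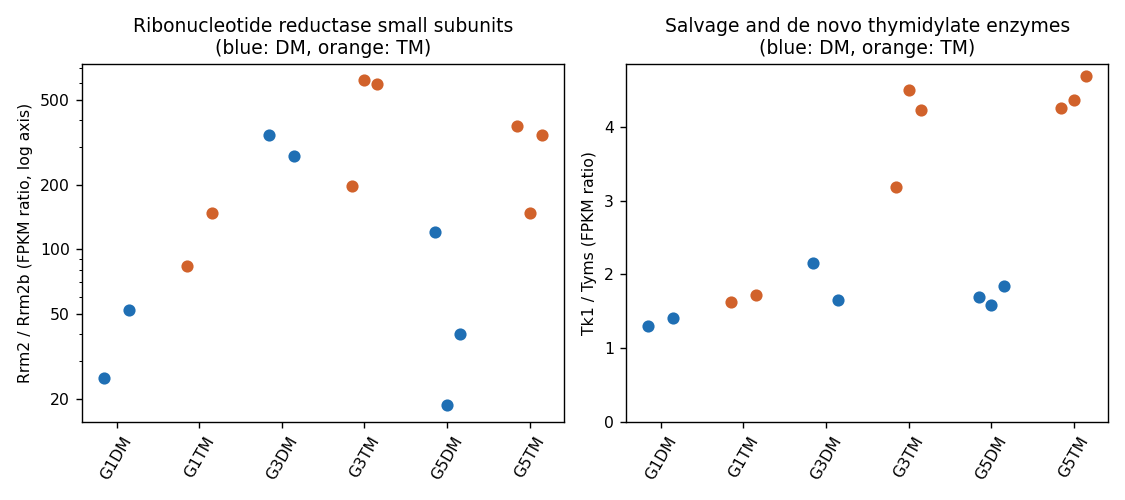
FPKM ratios per library by group: Rrm2 over Rrm2b on a log axis (left) and Tk1 over Tyms on a linear axis from 0 (right). The Tk1 over Tyms ratio is 3.19 to 4.69 in the G3TM and G5TM libraries and 1.30 to 2.15 in the other 9.

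Generation was compared within each genotype. In DM no member passed from G1 to G3 (0 of 9 by limma, 1 at an unadjusted p under 0.05, 0 by voom, where 0.214% of all tested genes were called), from G1 to G5 (0 of 9, 0 unadjusted, 0 by voom, 0.059% of all) or from G3 to G5 (0 of 9, 2 unadjusted, 1 by voom, 4.98% of all). The 95% intervals still allowed differences from G1 to G5 of -0.53 to 1.29 for Rrm2 and of -0.36 to 1.11 for Tk1. The G3DM values of Rrm2b, 0.120 and 0.153 FPKM, lay below all its G1DM and G5DM values, orders held by 26.5% and 17.4% of all tested genes. Without G5DM replicate 1, the lowest G5DM library for Rrm2b, Rrm2b was called at -0.70 from G1 to G3 (adjusted p = 0.029) and at 1.04 from G3 to G5 (adjusted p = 0.0016), where the share of all tested genes called also went up, to 11.3% and 22.9%. Rrm2b was tested only because of its levels in G1DM and G5DM, so these calls are no support for a difference of G3DM.

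In TM, Tk1 and Dut rose from G1 to G3, by 1.44 ± 0.34 (limma adjusted p = 0.0054) and 1.25 ± 0.24 (adjusted p = 0.002), 2 of 9 members where 25.2% of all tested genes were called higher. Both also rose from G1 to G5, by 1.48 ± 0.34 (adjusted p = 0.0039) and 1.20 ± 0.24 (adjusted p = 0.0018), again 2 of 9 where 26% of all tested genes were called higher. The call of Tk1 from G1 to G3 was lost without G1TM replicate 1 (adjusted p = 0.062), which left 1 member. Tyms, Rrm1, Rrm2, Dctd, Dck, Samhd1 and Rrm2b did not pass in either comparison, although Rrm2b passed as lower from G1 to G3 without G5DM replicate 1 (-0.42, adjusted p = 0.047, where 26.1% of all tested genes were called lower). Rrm1, Dck and Rrm2b were below both G1TM libraries in all 6 later TM libraries, where 35.4% of all tested genes had this order in G3 and 36.2% in G5 (Rrm1 -0.20 ± 0.25 and -0.43 ± 0.25; Dck -0.34 ± 0.23 and -0.47 ± 0.23; Rrm2b -0.42 ± 0.24 and -0.37 ± 0.24). Both comparisons span the division of the libraries, so generation cannot be told apart from it in TM. From G3 to G5 in TM, which lies within the 6 libraries, no member passed (0 of 9 by limma, 0 unadjusted, 0 by voom, where 0.0295% of all tested genes were called), and the interval for Tk1 was -0.62 to 0.69.

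Interactions tested whether TM and DM lay further apart in a later generation than in G1. In G3 no member passed (0 of 9 by limma, 1 unadjusted, 0 by voom, where 2.42% of all tested genes were called), with Dut at 0.95 ± 0.35 (adjusted p = 0.18) and Tk1 at 0.97 ± 0.50 (adjusted p = 0.33). In G5 the difference of Dut was larger than in G1 by 1.28 ± 0.34 (adjusted p = 0.023), 1 of 9 where 11.5% of all tested genes were called higher. Tk1 was at 1.10 ± 0.48 (adjusted p = 0.11), and the intervals of Tyms (-0.74 to 0.82) and Samhd1 (-0.45 to 0.50) lay around 0. The call of Dut was lost without G1DM replicate 2 (adjusted p = 0.08, with Dck called at -1.16, adjusted p = 0.038), G1TM replicate 1 (0.12), G5DM replicate 2 (0.06) or G5TM replicate 1 (0.052), without the filter (0.052) and after removal of the GC and length trend (0.85, adjusted p = 0.071). Without G5DM replicate 1, 3 members were called (Dut higher, Rrm2b -0.71, adjusted p = 0.036, and Dck -0.89, adjusted p = 0.045), where 42.4% of all tested genes were called, and without G5TM replicate 2, 2 were called where 18% of all tested genes were (Dut and Tk1 at 1.39, adjusted p = 0.049). The Rrm2b call is partly a condition of its being tested, as Rrm2b passed the filter only through DM libraries.

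The balance of thymidine salvage and de novo synthesis enzymes also differed between libraries. Tk1 over Tyms in FPKM was 1.30 and 1.41 in G1DM, 1.62 and 1.72 in G1TM, 1.66 and 2.15 in G3DM and 1.59 to 1.85 in G5DM. In G3TM it was 3.19 to 4.50 and in G5TM 4.26 to 4.69, so the 6 libraries that stand apart did not overlap the other 9, while G1TM overlapped DM. Tk1 over Rrm2 gave the same picture, with 0.410 to 0.726 in the 6 and 0.133 to 0.251 in the 9. Tk1 is richer in GC (54.6%) than Tyms (48.2%) and Rrm2 (46.8%). After removal of the GC and length trend the G5 differences were 2.02 ± 0.27 for Tk1, 1.67 ± 0.17 for Dut and 1.23 ± 0.24 for Tyms.

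**Figure D4:**
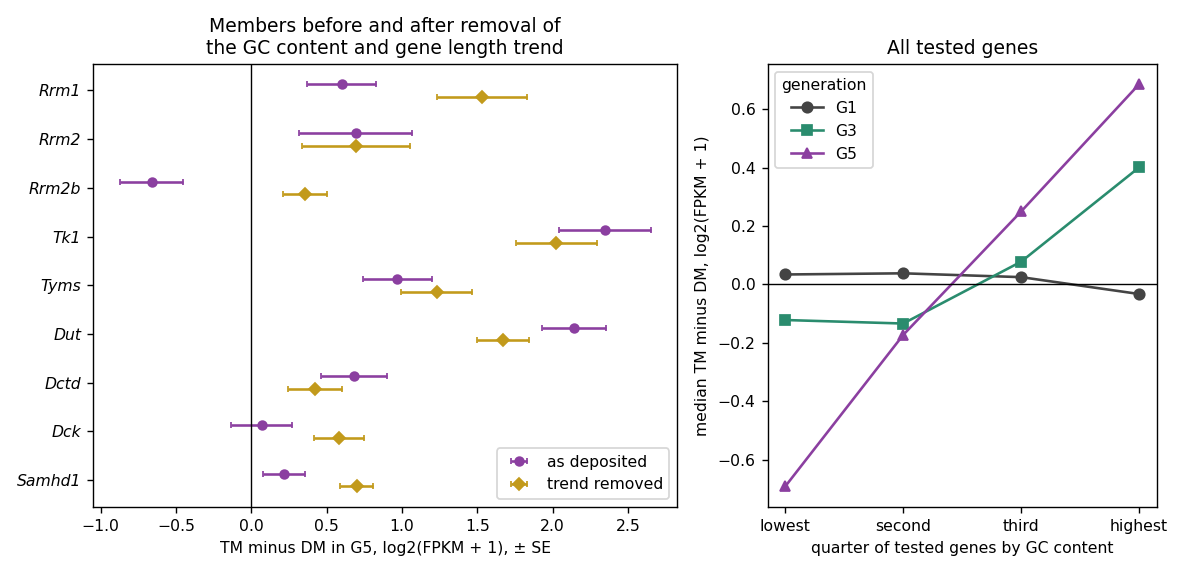
Left, TM minus DM in G5 on the log2(FPKM + 1) scale, with SE bars, from the deposited values and once trends with GC content and length were removed. Right, the median TM minus DM of all tested genes in 4 even classes of GC content. Rrm2b is at -0.66 and 0.36 and Rrm1 at 0.60 and 1.53, while Tk1 (2.35 and 2.02) and Dut (2.14 and 1.67) stay the highest of the 9.

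Across the 15 libraries, which share the groups, depth and the division above, the 8 members other than Rrm2b had pairwise Pearson r of 0.46 to 0.99 on the log2(FPKM + 1) scale, and of 0.41 to 0.98 within the 9 libraries. Within the 6 G3TM and G5TM libraries their r ran from -0.41 (Tk1 with Samhd1) to 0.98. Among Tk1, Tyms, Rrm1, Rrm2, Dut and Dctd alone it was 0.75 to 0.98 there. Rrm2b correlated with the other 8 at -0.64 to 0.12, at -0.38 to 0.38 within the 9 and at -0.71 to 0.55 within the 6. The genes most like Rrm2 over the 15 libraries, among 7986 protein-coding candidates, were Nop56, a ribosome biogenesis factor (r = 0.94), Ftsj3 (0.93) and Uba2, a subunit of the SUMO activating enzyme (0.93). Those most like Rrm2b were Zfc3h1 (0.97), Tmtc3 (0.96) and Pik3c2a, a lipid kinase (0.96). The latter 3 resemble Rrm2b also in transcript GC content (39.7% to 44.1%) and length (7848 to 11130 bases), and the part of this in the likeness was not tested.

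The rest of the pathway was described from lists, over the mean of generations, where the median of all tested genes was -0.00432 and 29% of them were called higher and 25.1% lower. This mean spans the division through G3 and G5, so its rises and falls cannot be assigned to the p53 genotype. Of 12 thymidylate and folate cycle genes 9 rose, 2 fell and 1 did not pass (median 0.90), from Shmt2, the mitochondrial serine hydroxymethyltransferase (1.32 ± 0.26, limma adjusted p = 0.00089), to Ggh, a folylpolyglutamate hydrolase (-0.86 ± 0.14, adjusted p = 0.00029). Of 18 tested nucleotide kinase and mitochondrial salvage genes, out of 20, 11 rose and 4 fell (median 0.52). Dtymk, the thymidylate kinase that acts after both Tk1 and Tyms, rose most (1.77 ± 0.16, adjusted p = 3.6e-06), and Ak1, an adenylate kinase, fell most (-1.79 ± 0.14, adjusted p = 1.5e-06). In G1 alone Dtymk was at 0.67 ± 0.30 (limma adjusted p = 0.36). Of 15 genes of nucleotide breakdown and pool cleaning 9 rose and 0 fell (median 0.54), led by Dctpp1, a dCTP pyrophosphatase (2.54 ± 0.31, adjusted p = 3.6e-05). Of 14 purine genes 9 rose and 1 fell (median 0.65), with Aprt, the adenine salvage enzyme, at 1.29 ± 0.24 (adjusted p = 0.00074) and Prps2, a phosphoribosyl pyrophosphate synthetase, at -1.02 ± 0.17 (adjusted p = 0.00026). Of 5 de novo pyrimidine genes 4 rose and 0 fell (median 0.87), with Dhodh, the dihydroorotate dehydrogenase, at 1.11 ± 0.14 (adjusted p = 5.4e-05).

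In G1, where both genotypes lie on the same side of the division, fewer of these genes passed. The same was true of all tested genes, of which 0.361% were called higher and 0.811% lower in G1. The called ones were Ak4, a mitochondrial adenylate kinase, which rose (1.56 ± 0.29, limma adjusted p = 0.022), and Ak1, which fell (-2.44 ± 0.27, adjusted p = 0.00055). None of the folate cycle, breakdown, purine and pyrimidine genes was called by limma in G1, with 3 of 12, 0 of 15, 3 of 14 and 1 of 5 at an unadjusted p under 0.05. Of 15 S phase genes 1 was called in G1, the helicase subunit Mcm6 (1.42 ± 0.30, adjusted p = 0.039), with a list median of 1.21, while 11 rose over the mean of generations, Mcm5 most (2.04 ± 0.25, adjusted p = 4.1e-05). In G5, 10 were higher in TM and 2 lower, Mki67 (-1.36) and Ccne2 (-1.31), where 30.3% and 28.4% of all tested genes were called. From G1 to G5 in TM, 0 of the 15 rose, where 26% of all tested genes were called higher, and 5 fell. The list median there was 0.30, against 0.03 over all tested genes. The 5 falls stand without the share of all tested genes called lower and are not read as a result about these genes.

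Regulators of the members and p53 targets were set beside them, with the same shares of all tested genes called over the mean (29% higher, 25.1% lower). Here too the mean spans the division. Of 16 tested regulators, out of 17, 11 rose and 2 fell over the mean: Mybl2, the MYB subunit of MMB, rose most (2.16 ± 0.26, limma adjusted p = 3e-05). The difference was 1.09 ± 0.13 for E2f1 (2.7e-05) and 1.17 ± 0.15 for Foxm1 (5.9e-05), and Rb1, the retinoblastoma protein, fell most (-1.06 ± 0.16, adjusted p = 0.00014). In G1 none of the 16 was called, with 11 at an unadjusted p under 0.05 and Foxm1 at 1.29 ± 0.29 (adjusted p = 0.051). Of 3 genes for degradation of the Rrm2 and Tk1 proteins, Ccnf, the cyclin F that marks Rrm2, rose over the mean (1.19 ± 0.20, adjusted p = 0.0003), as did Fzr1, an activator of the anaphase-promoting complex (1.10 ± 0.15, adjusted p = 8.5e-05), and none was called in G1. Of 12 other p53 targets 2 rose and 7 fell over the mean, from Bax, a pro-apoptotic protein (0.67 ± 0.19, adjusted p = 0.0096), to Ccng1, cyclin G1 (-4.00 ± 0.19, adjusted p = 1.6e-08). Bax was at 1.20 ± 0.33 in G3 and 1.73 ± 0.29 in G5, both across the division. Its difference in G3 was larger than that in G1 by 2.11 ± 0.49 (limma adjusted p = 0.04), so its rise over the mean does not describe G1. In G1 0 of these 12 targets rose and 4 fell, where 0.361% of all tested genes were called higher and 0.811% lower. The fall was led by Cdkn1a, the CDK inhibitor p21 (-4.25 ± 0.54, limma adjusted p = 0.002). Pcna, the sliding clamp of DNA polymerases, rose over the mean by 1.23 ± 0.17 (adjusted p = 8.6e-05), and Trp53 itself by 0.61 ± 0.18 (adjusted p = 0.014). In G1 Mdm2, which degrades p53, was at -1.69 ± 0.45 (adjusted p = 0.087). Rrm2b was at -0.20 ± 0.26 in the same libraries, on a scale that understates changes at its low FPKM.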

How the data were processed

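PolyA RNA sequencing of 15 MEF libraries in 6 groups, set by the genotype in the labels, was analysed. The authors deposited 1 table of FPKM values. According to the submitters' processing notes, the tools included HISAT2 2.0.5 and featureCounts 1.5.0-p3, beside fastp, CASAVA 1.8 and DESeq2 1.20.0, with no roles given. The genome build is not given in the sources used here. Coordinates in the table equalled GENCODE vM21 (GRCm38) for 98.3% of identifiers. FPKM times gene length was a whole multiple of 1 step per library for 100% of values (tolerance 0.05), which gave the recovered reads. Depth was 17448588 to 29571111 recovered reads, and counting error is largest for low genes such as Rrm2b.

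Genes with FPKM of at least 1 in at least 2 libraries (13562) were fitted with limma 3.58.1 (R 4.3.3) on log2(FPKM + 1), with 6 group means, empirical Bayes moderation and an intensity trend. The tests were two-sided and adjusted by Benjamini-Hochberg over all tested genes, and an adjusted p under 0.05 was called. The code was tested on simulated data. Replicate numbers did not pair libraries (9 of 33 same-number pairs correlated above 0.1). Alternatives were a pseudocount of 0.1, no filter, quantile normalization, fits on only the groups compared, a replicate block and leaving out each library. Chosen after seeing the data were removal of a trend on GC content and gene length per library (splines with 4 degrees of freedom), scaling to recovered reads, voom on recovered reads, and leaving out G1DM replicate 1 with G5TM replicate 2 or the 6 G3TM and G5TM libraries. The members and lists were chosen with earlier results of these data known. Named genes were the 9 members, the called genes with the largest rise and fall of each list in G1 and over the mean, E2f1, Mybl2, Foxm1, Trp53, Cdkn1a, Mdm2 and Pcna as references, the 3 genes most correlated with Rrm2 and with Rrm2b, and genes sharing reads with a member. Tables and plots were made with Python 3.11.15, pandas 2.3.3, numpy 2.4.6, scipy 1.17.1 and matplotlib 3.10.9.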

Additional observations from a re-analysis of the deposited data

Results flagged for a closer look

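For Dut, the dUTPase gene, the TM minus DM difference in G5 was larger than that in G1 by 1.28 ± 0.34 on the log2(FPKM + 1) scale (limma adjusted p = 0.023), from 0.86 in G1 to 2.14 in G5. G5TM lies in the 6 libraries that stand apart, so genotype by generation and this division cannot be told apart here. The call was lost in 6 of 24 alternatives.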

How the results depend on the processing

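Under 25 other settings, 2619 member values were recomputed: 2536 stayed on their side of the threshold (112 of them with a changed sign, neither value being called), 44 lost a call, 34 gained one and 5 reversed. All the reversals came with removal of the GC and length trend: Rrm2b to 0.36 (TM against DM, G5), 0.58 (G3 against G1, TM) and 0.67 (G5 against G1, TM), and Samhd1 to 0.38 and 0.37 in the same TM comparisons. That setting gave counts of called members of 1 (TM against DM, G1), 4 and 4 (G3 and G5 against G1, TM) and 0 (interaction G5). Quantile normalization gave 2 in G1 and 2 for the interaction in G5, the fit without filter 0 for that interaction, the fit of only the G5 groups 3, scaling to recovered reads 1 in G1, and a pseudocount of 0.1 and voom each 1 for G5 against G3 in DM. Leaving out 1 library gave 0 to 2 in G1, 2 to 6 in G3, 3 to 7 in G5, 0 to 1 for G3 against G1 in DM, 0 to 1 for G5 against G3 in DM, 1 to 3 for G3 against G1 in TM and 0 to 3 for the interaction in G5. These counts of called members stand without the share of all tested genes called in each fit and are not read as results about the members. The causes of the changes in count were not tested. Same-number libraries shared only a number (r -0.54 to 0.38), and the replicate block moved the count over the mean from 8 to 7 (Samhd1, adjusted p = 0.053) and changed no other called member. Only scaling to recovered reads moved the median of all genes by over 0.1 (TM against DM in G5 from 0.02 to -0.12, G3 against G1 in TM from 0.03 to -0.13, G5 against G1 in TM from 0.03 to -0.08, G5 against G3 in DM from -0.09 to 0.02, and the interaction in G5 from 0.02 to -0.11). Fits of only the groups compared were not run for the mean of generations. Depth limits Rrm2b most, with as few as 15 reads in a library.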
